A study of Mus musculus with 8 samples.

Results

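The genes described here encode the subunits of the mitochondrial respiratory chain and ATP synthase (complexes I to V), with cytochrome c, in sorted kidney epithelium of Pkd1KO mice fed 3 levels of protein. They were chosen by a rule on the symbol, with earlier results of these data known. The rule took protein-coding genes whose symbol begins Nduf followed by a subunit letter and number, Sdha to Sdhd and the Uqcr genes. It also took Cyc1, Cycs, the numbered Cox subunits, the Atp5 genes, and the mt-Nd, mt-Co, mt-Cytb and mt-Atp genes. This gave 100 gene identifiers of the 53700 in the table, of which 87 are encoded in the nucleus and 13 in mitochondrial DNA. Of these, 97 passed the filter of at least 1 FPKM (sequenced fragments relative to transcript length and library depth) in at least 2 libraries and were tested. The 3 that did not were Cox7b2 and Cox8c, testis forms of complex IV subunits listed at 0 in every library, and a second Atp5o identifier at 0.39 FPKM in 1 library only. Among the 84 nuclear-encoded genes tested, 37 belong to complex I by symbol, 4 to complex II, 9 to complex III, 16 to complex IV and 17 to complex V, and Cycs makes up the count. The 13 mitochondrially encoded genes divide into 7 for complex I, 1 for complex III, 3 for complex IV and 2 for complex V.

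All mice carried the conditional Pkd1 flox/flox alleles with CAGG-CreER, a Cre recombinase that tamoxifen switches on throughout the body, and all, those on the NP control diet too, had received tamoxifen. Tamoxifen was given in 3 doses at 5 to 6 weeks of age, and the diets began 2 weeks later. The mice ate 2.8 g of food per day for 1 week, and this food held 6% protein in the LP diet, 18% in the NP diet and 60% in the HP diet. The diets also differed in their sucrose and starch, so protein and carbohydrate cannot be told apart. Each of the 8 libraries came from sorted cells of a pool of 2 to 3 mice, and their labels are LP F2, LP M, NP F2, NP KO7, NP M, HP F1, HP F2 and HP M. P-values here measure the spread between such pools.

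Complexes I to IV pass electrons from NADH and succinate to oxygen. Complexes I, III and IV also pump protons across the inner mitochondrial membrane, and complex V uses the proton gradient to make ATP. Complex II is encoded wholly in the nucleus, whereas the other complexes combine subunits from both genomes, so that transcripts made in separate compartments must meet in one enzyme. Kidney tubules, above all the proximal tubule and thick ascending limb, are among the most mitochondria-rich epithelia, because ion transport consumes much ATP.

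Estimated depth was 26600000 to 34800000 fragments per library. The epithelial label was borne by Cdh16, a kidney cadherin, at 559 to 765 FPKM, and Epcam at 22.2 to 58.8 FPKM in the 8 libraries. Pkd1 was at 1.38 to 4.11 FPKM, and a value per gene does not show whether the floxed exons were lost. The library labelled LP M held transcripts of both sexes (Xist at 16.3 and Ddx3y at 9.74 FPKM), and how this came about was not tested. NP KO7 held Ddx3y (7.99 FPKM) with little Xist (0.78 FPKM). Values without a single library are given beside the main results that rest on it. In bulk RNA of sorted cells, fewer cells of a type and less RNA per cell cannot be told apart.

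Members were among the most abundant transcripts in these cells. All 13 mitochondrially encoded genes ranked in the top 100 of the table by mean FPKM, and 73 of the 84 nuclear-encoded genes ranked in the top 500. The median over genes was 439 FPKM for nuclear-encoded and 22300 FPKM for mitochondrially encoded members. By complex, the median level of nuclear-encoded genes was 333 FPKM in complex I, 267 in complex II, 688 in complex III, 508 in complex IV and 804 in complex V. The level was thus lowest in complex II, the single complex without proton pumping or ATP synthesis, and highest in ATP synthase, although the genes of each complex overlapped those of the others.

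No member passed an adjusted p of 0.05 in any comparison (limma, Benjamini-Hochberg over 13566 genes). The background was small as well, at 0.0221% of all genes called in HP against NP, 0.0147% in HP against LP, 0.0147% in LP against NP and 0.00737% in HP against the mean of the other diets. What the members showed was small differences that many of them shared. Of the 84 nuclear-encoded genes, 69 had their lowest diet mean on NP, 63 their highest on LP and 18 their highest on HP. Mitochondrially encoded members had their highest mean on HP in 8 of 13 genes and on LP in 5, and their lowest on NP in 9.

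In HP against NP, 88 of 97 members had a fold change above 0 (90.7%, against 40.9% of all genes tested). The median log2 fold change was 0.17 over nuclear-encoded and 0.20 over mitochondrially encoded members, against -0.05 over all genes. At an unadjusted p under 0.05, 1 member was higher and 1 lower, where 2.96% of all genes were higher and 5.92% lower. All HP libraries lay above all NP libraries in 4 members (Cox6a2, Ndufa1, Ndufa4l2 and Atp5s) and below them in 1 (Cox6b2), with 3.66% and 8.78% of all genes as background. The share of members wholly above NP was thus close to the background, the share wholly below was under it, and in most members the diets overlapped.

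The nuclear median in this comparison depended on a single control library. Without NP M it was 0.01 on the log2 scale, with 43 genes above 0 and 41 below, and without NP KO7 it was 0.30 with 80 above. A fit that blocks on the label (F2 or M), which drops HP F1 and NP KO7, gave 0.28. Without HP F2 it was 0.06. The mitochondrially encoded median stayed between 0.12 and 0.34 when each library was left out, lowest without NP KO7, and was 0.07 with quantile normalization.

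In LP against NP, the direction was shared as widely: 85 of 97 members were above 0 (87.6%, against 47.9% of all genes). Abundant genes shared much of this direction. Of the 897 genes with a mean over 100 FPKM, members included, 71.5% were above 0, and of the 314 among them of up to 700 bases 81.8%. The median log2 fold change was 0.26 over nuclear-encoded and 0.17 over mitochondrially encoded members, with -0.02 over all genes. Under other scalings the nuclear median was 0.08 (quantile normalization), 0.14 (mitochondrial and haemoglobin genes left out of the scaling) and 0.15 (equal sums), and the mitochondrially encoded median 0.07, 0.05 and 0.06. Both LP libraries lay above all 3 NP libraries in 27 members, 23 nuclear-encoded and 4 mitochondrially encoded (mt-Nd1, mt-Co2, mt-Atp6 and mt-Nd3), which is 27.8% of members beside 12.7% of all genes. No member was lower on LP in both libraries, beside 16.4% of all genes. At an unadjusted p under 0.05, 5 members were higher and 0 lower, beside 4.57% and 5.82% of all genes. The nuclear median was 0.10 without NP M, 0.39 without NP KO7 and 0.39 with the block, and 0.31 without LP M, the library of mixed sex markers. The mitochondrially encoded median was 0.03 without NP KO7.

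Transcript length went with the same difference. Nuclear-encoded members are short, with a median of 617.5 bases against 1229 for all genes tested. Among the 314 genes of up to 700 bases with a mean over 100 FPKM, members included, the median log2 fold change in LP against NP was 0.28, and over the 50 nuclear-encoded members of up to 700 bases it was 0.28 as well. The 34 longer members had a median of 0.21. In HP against NP the 314 short abundant genes had a median of 0.01 where the short members had 0.20. The part of length in these differences was not tested.

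In HP against LP, most nuclear-encoded members were below 0 and mitochondrially encoded ones were divided. Of the nuclear-encoded genes 66 were below 0 and 18 above, with a median log2 fold change of -0.07, whereas the mitochondrially encoded genes divided into 7 above and 6 below (median 0.01), beside -0.04 for all genes. All HP libraries lay above both LP libraries in 5 members, among them Cox6a2, mt-Co1, mt-Nd5 and mt-Nd4l, and below them in 10, beside 12.8% and 20.3% of all genes. At an unadjusted p under 0.05, 3 members were higher and 1 lower, beside 5.06% and 7.32% of all genes. The share of nuclear-encoded members above 0 was 21.4%, beside 44.9% of all genes and 20.4% of the 897 genes with a mean over 100 FPKM, whose median was -0.19. The nuclear direction did not hold under every scaling. The median was 0.12 with quantile normalization, 0.08 when mitochondrial and haemoglobin genes were left out of the scaling, which moved the median of all genes from -0.04 to 0.09, and 0.05 without HP M. Without LP M it was -0.14.

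**Figure D1:**
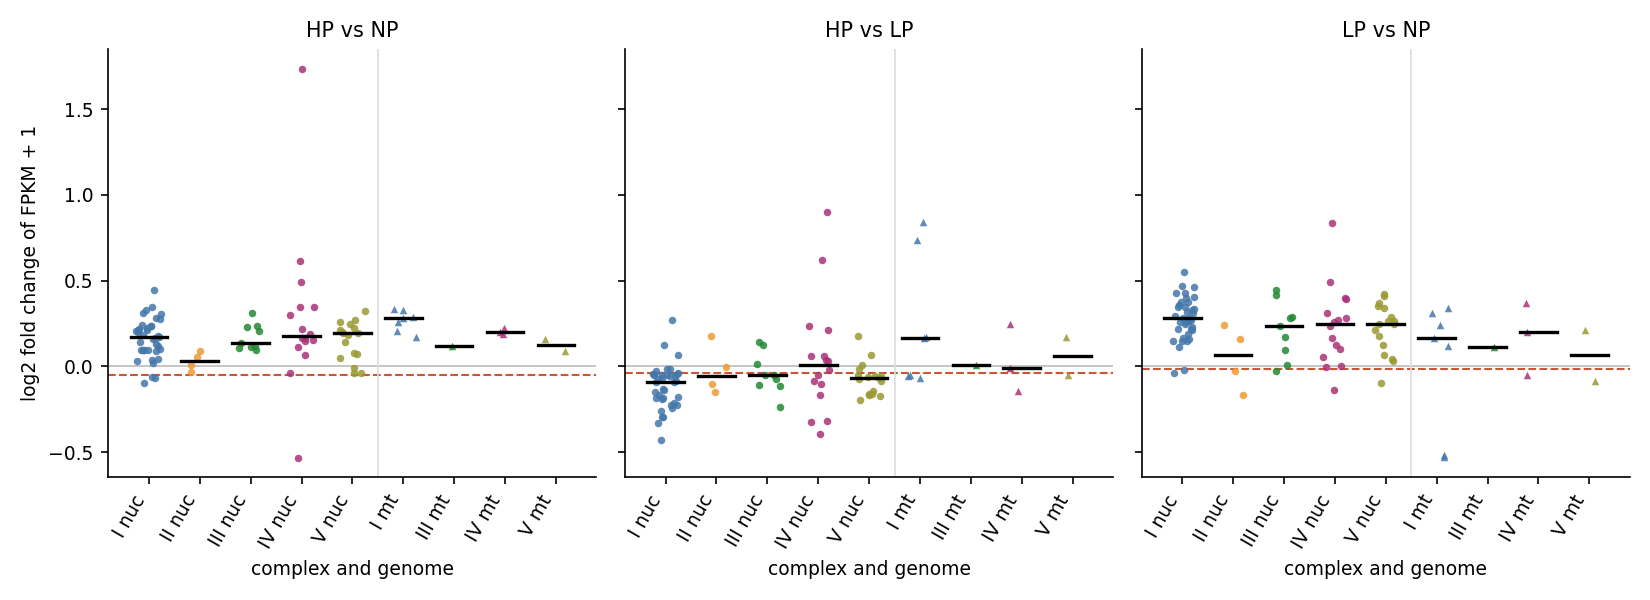
Log2 fold change on the log2(FPKM + 1) scale of each member tested in HP against NP, HP against LP and LP against NP, by complex, with circles for nuclear-encoded (nuc) and triangles for mitochondrially encoded (mt) genes, a bar at each median and Cycs left off. The dashed line is the median of all genes tested, at -0.05, -0.04 and -0.02. The medians of complexes I, III, IV and V sit above it in HP against NP and LP against NP. All complex II genes lie just above it in HP against NP, and in LP against NP 2 lie above and 2 below.

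The libraries differed among themselves as much as the diets did. As a median over nuclear-encoded members, the deviation from each gene's mean was 0.19 and 0.06 log2 units in LP F2 and LP M, then -0.11, 0.16 and -0.41 in NP F2, NP KO7 and NP M. In HP F1, HP F2 and HP M it was 0.10, 0.24 and -0.23. NP M was thus the lowest and HP F2 the highest library, 66 of 84 genes had their lowest value in NP M, 36 had their highest in HP F2, and NP and HP overlapped.

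The mitochondrially encoded genes followed another order. Their median deviation was 0.03 and 0.05 in LP F2 and LP M, -0.02, -0.38 and 0.06 in NP F2, NP KO7 and NP M, and -0.19, 0.16 and 0.27 in HP F1, HP F2 and HP M. NP KO7 held the lowest value in 9 of 13 genes and HP M the highest in 9, although both stood the other way in the nuclear-encoded set. The pooled SD within diets was 0.24 for the nuclear and 0.21 for the mitochondrial median, about as large as the differences between diets. This SD ignores the labels, and within each diet the library labelled M had the lowest nuclear median.

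Within libraries of 1 label, HP against NP had a nuclear median of 0.36 for label F2 and 0.18 for label M, and LP against NP had 0.30 and 0.47. In HP against LP the labels went opposite ways, at 0.08 for F2 (52 above 0, 32 below) and -0.30 for M (7 above, 77 below). Each is 1 library against 1, so no test applies.

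**Figure D2:**
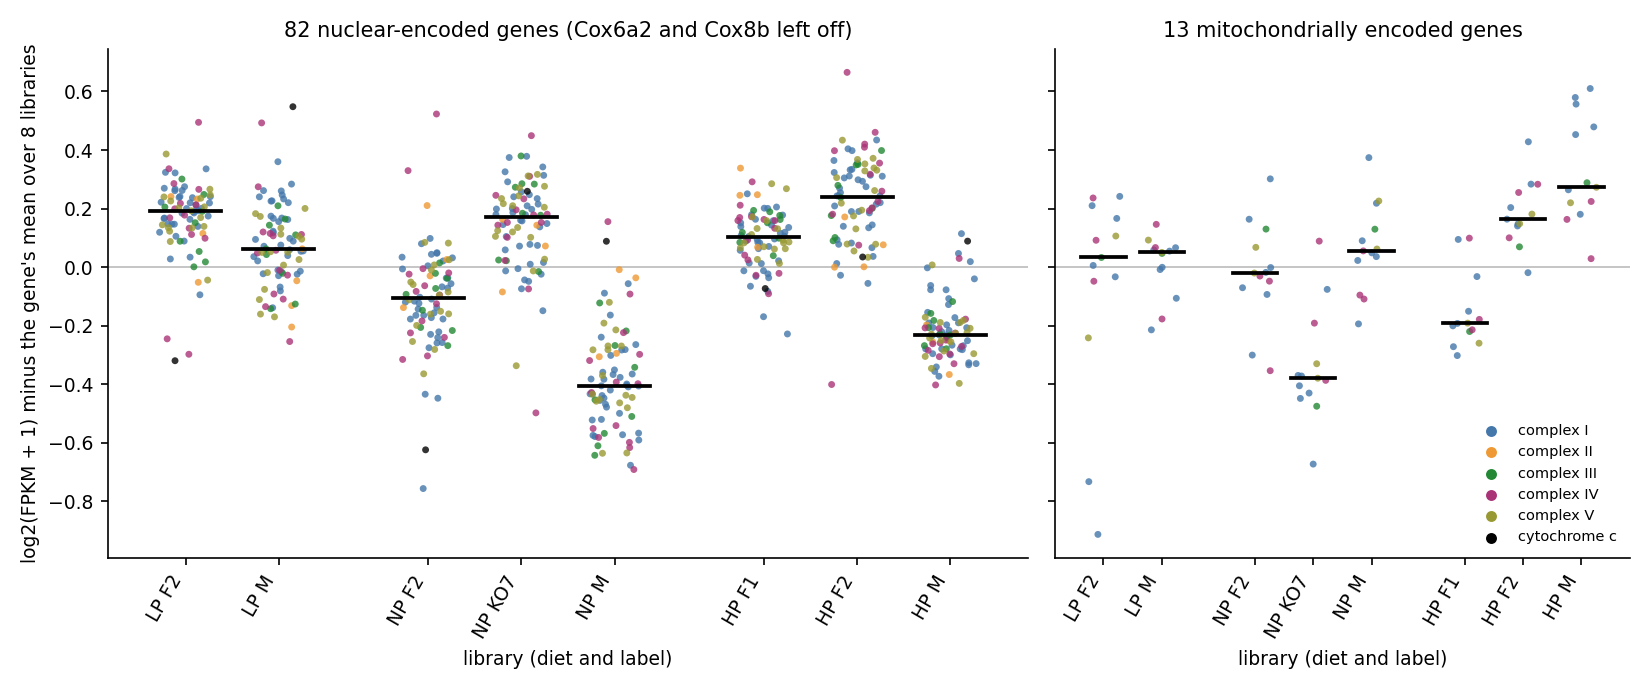
Deviation of each member from its own mean over the 8 libraries, in log2 units of FPKM + 1, by library, nuclear-encoded genes on the left (Cox6a2 and Cox8b left off for scale) and mitochondrially encoded genes on the right, coloured by complex with bars at medians. Nuclear-encoded genes lie lowest in NP M at -0.41 and highest in HP F2 at 0.24, and mitochondrially encoded genes lowest in NP KO7 at -0.38 and highest in HP M at 0.27.

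Complex I is the NADH dehydrogenase and the largest enzyme of the chain. Its 37 nuclear-encoded genes had a median log2 fold change of 0.17 in HP against NP (34 above 0), -0.09 in HP against LP (34 below) and 0.28 in LP against NP (35 above). Without NP M the HP against NP medians were -0.0037 in complex I, -0.04 in complex II, 0.0051 in complex III, 0.08 in complex IV and 0.03 in complex V, so the sign turned in complexes I and II. In LP against NP they were 0.14, -0.0084, 0.06, 0.08 and 0.10, and the sign turned in complex II. The complex I core genes Ndufs1 and Ndufv1 had diet means in different orders, and this difference was not tested. Ndufs1, which carries iron-sulphur clusters, was at 106 ± 1.77 FPKM in LP, 90.1 ± 3.91 in NP and 103 ± 9.18 in HP (SD over 2, 3 and 3 libraries, as in all values of this form). Ndufv1, which binds NADH, was at 298 ± 6.41 (LP), 304 ± 38.02 (NP) and 290.3 ± 14.6 FPKM (HP), and its log2 fold change in HP against NP was -0.06 ± 0.13 (SE), turning to 0.03 without NP KO7.

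Both LP libraries lay above all NP libraries in 15 of the 37 genes (40.5%, beside 12.7% of all genes). These were accessory subunits except Ndufs1 and Ndufa4l2, the latter placed in complex I by symbol only. Ndufa5 was at 548 and 513 FPKM on LP, 391, 443 and 323 on NP, and 475, 499.7 and 364 on HP. LP was above every other library, and NP and HP overlapped. Its log2 fold change in LP against NP was 0.47 ± 0.19 (limma adjusted p = 0.450).

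Ndufv3, an accessory subunit of the NADH-binding arm, likewise had both LP libraries above all others, and had the smallest p of the nuclear-encoded complex I genes in HP against LP. It was at 559.8 and 531 FPKM on LP, 454, 514 and 349 on NP, and 382, 439 and 397 on HP. HP lay inside the range of NP. The log2 fold change was -0.43 ± 0.18 in HP against LP (limma adjusted p = 0.386).

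Ndufa1, needed for assembly of the membrane arm, was at 642 and 561 FPKM on LP, 550.2, 553 and 424 on NP, and 629, 690.3 and 571 on HP. HP lay above NP with a narrow gap, and the log2 fold change was 0.31 ± 0.16 (limma adjusted p = 0.615), or 0.19 without NP M. Ndufs4 (0.27 ± 0.14) was higher by a similar amount in HP against NP, and Ndufa8 (-0.07 ± 0.17) was close to level, with its sign turning without NP KO7 or without HP M. The most abundant nuclear-encoded genes under this symbol group were Ndufa4, a subunit now assigned to complex IV, at 1493 ± 38.8 (LP), 1248 ± 277 (NP) and 1460 ± 214 FPKM (HP), and Ndufa3 at 959.6 ± 101, 797 ± 149 and 863 ± 156 FPKM.

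Complex II, succinate dehydrogenase, links the chain to the citric acid cycle and had the medians nearest to 0 among the nuclear-encoded complexes in both comparisons with NP. Its 4 genes had a median log2 fold change of 0.03 in HP against NP, -0.05 in HP against LP and 0.06 in LP against NP. Sdha, the flavoprotein that oxidizes succinate, was at 223 and 201 FPKM on LP, 268, 218 and 230.2 on NP, and 293, 232 and 202 on HP, with the 3 diets overlapping and a log2 fold change of -0.17 ± 0.18 in LP against NP. Sdhb, the iron-sulphur subunit, was at 589 ± 49.2 (LP), 502 ± 84.4 (NP) and 533 ± 78.6 FPKM (HP). The membrane anchors Sdhc (319.7 ± 45.1, 287 ± 43.3 and 299.5 ± 52.0 FPKM) and Sdhd (208 ± 25.2, 211 ± 8.01 and 209 ± 44.0 FPKM) differed by less than the spread within diets.

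Complex III, the cytochrome bc1 complex, had a median of 0.13 in HP against NP with 9 of 9 genes above 0, -0.05 in HP against LP and 0.23 in LP against NP. The large core proteins Uqcrc1 (342 ± 32.9, 347 ± 86.3 and 375 ± 43.7 FPKM on LP, NP and HP) and Uqcrc2 (209.6 ± 2.59, 196 ± 10.8 and 213 ± 25.97 FPKM) differed by less than the spread within HP. So did the Rieske iron-sulphur protein Uqcrfs1 (287 ± 31.9, 255 ± 21.7 and 274 ± 40.7 FPKM) and cytochrome c1, Cyc1 (361 ± 22.5, 370.2 ± 57.7 and 400.3 ± 60.3 FPKM). The small subunits Uqcr10 (1313 ± 26.8, 1143 ± 304 and 1227 ± 230 FPKM) and Uqcrq (1162 ± 43.2, 994 ± 358 and 1136 ± 218 FPKM) had the highest levels among the nuclear-encoded genes of the complex.

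Uqcrb, which binds ubiquinone at the inner face of complex III, had the smallest p in this complex. It was at 838 and 786 FPKM on LP, 589, 673 and 536 on NP, and 738, 768 and 575 on HP. LP was above all other libraries, and HP overlapped NP. Its log2 fold change in LP against NP was 0.44 ± 0.18 (limma adjusted p = 0.446).

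Cycs, cytochrome c, which carries electrons from complex III to complex IV, varied widely within LP and within NP. It was at 314.5 and 575 FPKM on LP, 254, 470.3 and 418 on NP, and 373, 402 and 418 on HP. The 2 LP libraries held the highest value and the second lowest. Copies of Cycs, Gm10053 foremost, took 27.7% of the summed FPKM of the gene and its copies, so its own level is uncertain.

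Complex IV, cytochrome c oxidase, had a nuclear median of 0.18 in HP against NP (14 of 16 above 0), 0.01 in HP against LP and 0.25 in LP against NP. Cox4i1, the regulatory subunit present in most tissues, was at 2158 and 1769 FPKM on LP, 1876, 2366 and 1301 on NP, and 2035, 2441 and 1605 on HP. Within each diet the M library was lowest, and the diets overlapped. Cox5a (519 ± 39.5, 430.2 ± 46.2 and 493 ± 86.0 FPKM) was higher in both LP libraries than in any NP library. Cox5b (1021 ± 46.2, 878 ± 181 and 915 ± 142 FPKM) overlapped between diets.

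Complex V, ATP synthase, had a nuclear median of 0.19 in HP against NP (14 of 17 above 0), -0.07 in HP against LP and 0.25 in LP against NP. Atp5b, the catalytic beta subunit and the most abundant nuclear-encoded member, was at 2762 and 2566 FPKM on LP, 2582, 3136 and 2137 on NP, and 2721, 2745 and 2280 on HP. The highest and the lowest of these values were both NP libraries. Its partner Atp5a1, the alpha subunit, was at 777 ± 44.3 (LP), 836 ± 103 (NP) and 884 ± 137 FPKM (HP), an order that Atp5b did not share. Atpif1, the inhibitor of the synthase, is outside the symbol rule and was at 802 to 934 FPKM on LP, 465 to 679 on NP and 558 to 821 on HP.

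Atp5s, whose product is known as coupling factor B, was a low member with an orderly pattern. It was at 11.1 and 8.60 FPKM on LP, 7.35, 6.34 and 7.53 on NP, and 9.16, 8.49 and 8.32 on HP. LP and HP both lay above NP without overlap. The log2 fold change in LP against NP was 0.42 ± 0.16 (limma adjusted p = 0.441), or 0.25 without LP F2, and 93 to 203 fragments per library stood behind these values.

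Several subunits exist as tissue-specific isoforms from separate genes, and these held the member with the smallest p. Cox6a2 is the heart and skeletal muscle form of a complex IV subunit whose common form is Cox6a1. The coding stretches below, from the annotated transcripts of Cox6a1 (chromosome 5, coding bases 235 to 324) and Cox6a2 (chromosome 7, coding bases 190 to 279), are shown because the 2 genes must be told apart by sequence, with capitals at the 19 of 90 positions where they differ.
Cox6a1: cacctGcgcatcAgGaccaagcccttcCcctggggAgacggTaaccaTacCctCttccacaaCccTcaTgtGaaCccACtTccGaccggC
Cox6a2: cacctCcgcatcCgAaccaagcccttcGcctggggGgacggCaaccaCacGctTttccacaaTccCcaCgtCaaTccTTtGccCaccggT
Over the whole coding sequence 56.2% of bases are identical, and the longest run shared is 12 bases, far shorter than a read of 150 bases.

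Cox6a2 was at 9.04 and 8.14 FPKM on LP, 2.39, 7.33 and 4.5 on NP, and 15.4, 20.6 and 15.2 on HP, from 39 to 306 fragments per library. HP lay above both other diets and LP above NP, with no overlap between any 2 diets. The log2 fold change on the log2(FPKM + 1) scale was 1.74 ± 0.29 (SE) in HP against NP (limma adjusted p = 0.118), 0.90 ± 0.33 in HP against LP (adjusted p = 0.332) and 0.83 ± 0.33 in LP against NP (adjusted p = 0.441), the last 0.50 without NP F2. Over all alternatives of HP against NP the value ranged from 1.40 to 2.11 and the adjusted p from 0.0147 to 0.467, past the threshold with array weights and with the sex letter as a covariate. Over all genes, HP against NP had 8 called higher and 4 lower with array weights. With the sex letter 15 were called higher and 29 lower, and in the main fit 1 and 2. Cox6a1 itself was at 2075 ± 357 (LP), 2085 ± 454 (NP) and 2421 ± 494 FPKM (HP). Cox6a2 thus made up 0.706 ± 0.0768% of the pair on HP against 0.416 ± 0.0409% on LP and 0.225 ± 0.0942% on NP.

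Muscle transcripts were present at low levels. Of a list of 7 muscle markers, Acta1, Ckm and Mb passed the filter and 4 did not, and their sum was 39.3 and 18.3 FPKM on LP, 0.71, 42.5 and 7.86 on NP, and 61.8, 24.4 and 8.42 on HP. HP M held 15.2 FPKM of Cox6a2 with a muscle sum of 8.42, and NP KO7 held 7.33 with a sum of 42.5. Within LP and within NP, Cox6a2 stood in the same order as the muscle sum, and within HP it did not. The part of muscle RNA in the Cox6a2 difference was not tested.

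The other muscle-type isoforms went partly the same way. Cox7a1 was at 87.9 and 76.2 FPKM on LP, 65.7, 96.5 and 49.9 on NP, and 99.7, 129.5 and 69.4 on HP, with the diets overlapping. As a share of Cox7a1, Cox7a2 and Cox7a2l together it was 10.2 and 10.2% on LP, 9.62, 9.89 and 9.68% on NP and 12.2, 13.8 and 11.3% on HP, and in this share HP lay above every other library. Cox7a2, the common form, took 68.9 ± 0.217, 70.4 ± 3.62 and 70.3 ± 0.325% on LP, NP and HP. Cox7a2l, which takes part in joining complexes III and IV into supercomplexes, took the rest and had a log2 fold change of -0.32 ± 0.18 in HP against LP (limma adjusted p = 0.507), or -0.21 without LP F2 and -0.20 without HP M.

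Cox8b was at 8.03 and 4.99 FPKM on LP, 5.56, 8.37 and 5.56 on NP, and 17.8, 15.8 and 3.6 on HP. HP held both the highest values and the lowest. Its common counterpart Cox8a was at 1559 ± 204, 1510.1 ± 259 and 1636 ± 299 FPKM on LP, NP and HP. Ucp1, which marks the brown fat where Cox8b is abundant, was at most 0.79 FPKM.

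Cox6b2, known mainly from testis, was the member with every HP library below NP. It was at 29.1 and 51.1 FPKM on LP, 52.2, 36.6 and 40.2 on NP, and 33.7, 27.0 and 27.0 on HP. HP lay below NP, whereas LP spanned the range. The log2 fold change was -0.53 ± 0.22 in HP against NP (limma adjusted p = 0.548), -0.40 ± 0.25 in HP against LP and -0.14 ± 0.25 in LP against NP, the last reversing without LP F2 (0.26). The value in HP against LP was -0.79 without LP F2 and -0.0004 without LP M. The common form Cox6b1 was at 1088 ± 126, 841 ± 199.6 and 1062 ± 219 FPKM. Cox7b, another small subunit of complex IV, was at 569.9 ± 104, 407 ± 87.4 and 455 ± 75.9 FPKM, with a log2 fold change of -0.33 ± 0.22 in HP against LP (limma adjusted p = 0.596), or -0.14 without LP F2, -0.51 without LP M and -0.19 without HP M.

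The isoforms associated with low oxygen were close to the limit of detection. Cox4i2, which takes the place of Cox4i1 in lung, was at 0.20 to 1.13 FPKM, from 3 to 20 fragments. Ndufa4l2, induced by hypoxia in other cells, was at 1.94 and 2.11 FPKM on LP, 0.58, 1.66 and 1.51 on NP, and 1.98, 2.11 and 1.89 on HP. It lay above NP on both other diets, from 14 to 53 fragments per library, with a log2 fold change of 0.45 ± 0.22 in HP against NP (limma adjusted p = 0.607), or 0.21 without NP F2.

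Subunit c of ATP synthase, which forms the rotating ring in the membrane, is encoded by Atp5g1, Atp5g2 and Atp5g3. Their mature proteins are alike although the genes are not: the last 78 codons translate to the same residues while 63 of 234 bases differ. The first 120 of these bases are shown for the genes on chromosomes 11, 15 and 2, because they carry one protein by 3 codings, with capitals at the 33 positions where at least 1 of the genes differs.
Atp5g1: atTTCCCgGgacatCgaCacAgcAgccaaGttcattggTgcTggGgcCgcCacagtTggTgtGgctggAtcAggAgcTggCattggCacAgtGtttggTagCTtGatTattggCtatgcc
Atp5g2: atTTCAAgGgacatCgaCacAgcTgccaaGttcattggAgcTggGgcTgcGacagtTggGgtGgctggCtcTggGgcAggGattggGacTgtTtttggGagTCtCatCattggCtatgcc
Atp5g3: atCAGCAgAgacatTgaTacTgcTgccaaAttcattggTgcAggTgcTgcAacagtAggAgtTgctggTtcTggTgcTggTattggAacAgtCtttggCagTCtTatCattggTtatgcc
Atp5g3 held the largest share of the 3 in every library, at 55.6 ± 2.64% on LP, 55.7 ± 0.481% on NP and 52.2 ± 2.35% on HP. Atp5g1 held 32.5 and 30.6% on LP, 31.3, 31.1 and 29.2% on NP, and 35.7, 36.2 and 32.8% on HP, where all HP libraries lay above the others, HP M only just. Atp5g2 held 12.8 ± 1.27, 13.7 ± 0.689 and 12.9 ± 0.667%.

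The 13 mitochondrially encoded genes are transcribed as long precursors from both strands of the circle and cut apart afterwards. mt-Co1, the catalytic subunit of complex IV, was the most abundant transcript of the table, at 53278 and 48720 FPKM on LP, 53286, 48242 and 57247 on NP, and 59002, 67035 and 56203 on HP. HP lay above LP and overlapped NP in 1 library. With the FPKM of its nuclear copy added, LP F2 was at 69166, above HP F1 (62432) and HP M (62932). The match to the copy spans 483 bases, and the FPKM values were added without weighting by length. The sum therefore does not settle whether HP and LP overlapped. Its share of the mitochondrially encoded sum was 18.7%, ahead of mt-Atp8 (15.3%), mt-Cytb (11.2%), mt-Co3 (10.4%), mt-Nd1 (9.87%), mt-Co2 (9.16%) and mt-Atp6 (7.52%). The remaining complex I genes took 5.62% (mt-Nd4), 4.94% (mt-Nd2), 2.38% (mt-Nd4l), 2.26% (mt-Nd6), 1.74% (mt-Nd5) and 0.986% (mt-Nd3). This order depends on near-identical copies. With their FPKM added in the same unweighted way, mt-Co1 took 15.5%, mt-Co3 14.1%, mt-Co2 13.9%, mt-Atp6 11.6%, mt-Atp8 11.2% and mt-Nd3 4.06%. In that form mt-Nd5 was last at 1.28%.

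The mitochondrially encoded genes with the smallest p between HP and LP, mt-Nd5 and mt-Nd4l, both encode subunits of the membrane arm of complex I. mt-Nd5 was at 2985 and 4277 FPKM on LP, 5558, 3839 and 6432 on NP, and 4852, 5714 and 7575 on HP. LP F2 was the lowest library, and all HP libraries lay above both LP libraries. The log2 fold change was 0.73 ± 0.29 in HP against LP (limma adjusted p = 0.359) and -0.53 ± 0.29 in LP against NP (adjusted p = 0.548), and with the sex letter as a covariate the first was 0.81 with an adjusted p of 0.0367. Without LP F2 the values were 0.47 and -0.27, and without LP M the first was 0.99. Over all genes in HP against LP, the sex letter fit called 57 higher and 132 lower, beside 0 and 2 in the main fit.

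mt-Nd4l was at 3601 and 6300 FPKM on LP, 8360, 5240 and 7220 on NP, and 7242, 9127 and 9455 on HP. LP F2 was again the lowest. Its log2 fold change was 0.84 ± 0.30 in HP against LP (limma adjusted p = 0.330) and -0.52 ± 0.30 in LP against NP (adjusted p = 0.562). LP F2 carried much of both values: without it they were 0.44 and -0.11, and without LP M they were 1.25 and -0.92.

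Set against other mitochondrial transcripts, these genes put LP apart. The ratio of mt-Nd5 to mt-Cytb was 0.0887 and 0.126 on LP and 0.154 to 0.188 in the 6 other libraries. The ratio of mt-Nd4l to mt-Nd4, its partner on a shared messenger, was 0.224 and 0.383 on LP against 0.420 to 0.508. The ratio of mt-Nd6 to mt-Nd5, which lie on opposite strands with overlapping ends, was 2.53 and 1.59 on LP against 1.06 to 1.29. In each case LP F2 was farther out than LP M and the 2 libraries were the extremes, and no test was made because the ratios were picked after the values were seen. The labels and the study's methods name different library kits, so the use of strand in counting mt-Nd6 and mt-Nd5 is not settled.

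**Figure D3:**
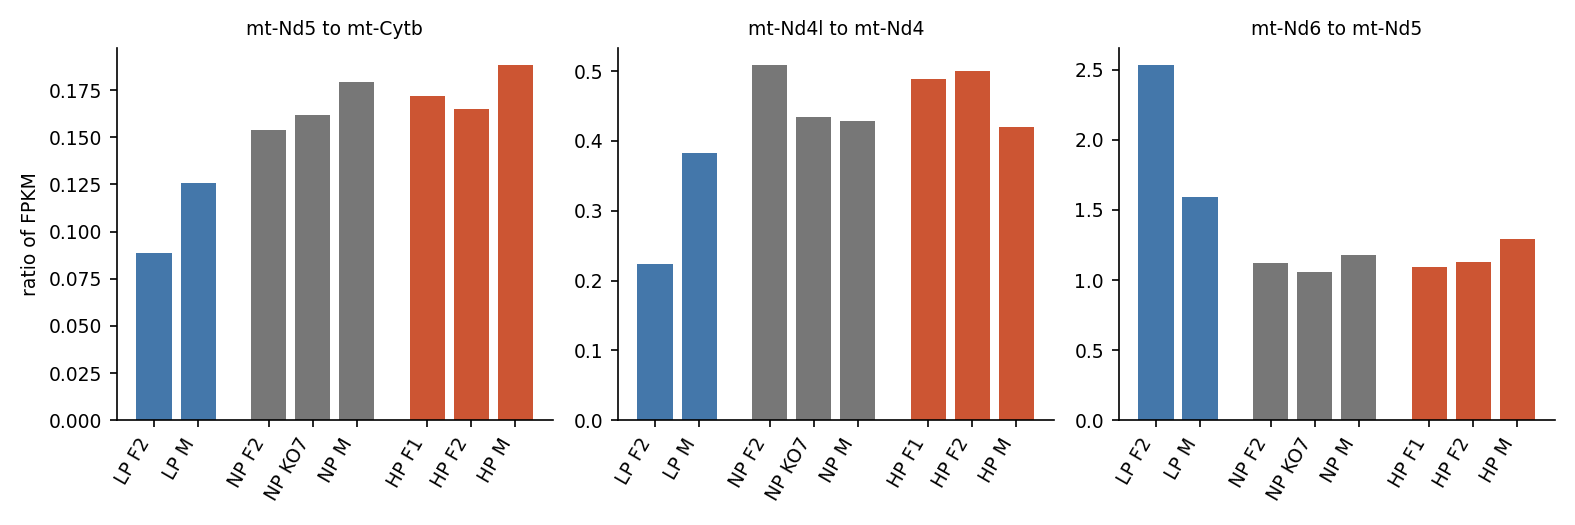
Ratio of FPKM within each library for 3 pairs of mitochondrially encoded genes, bars by library and coloured by diet (LP blue, NP grey, HP red), axes from 0. The LP libraries are lowest for mt-Nd5 to mt-Cytb (0.0887 and 0.126) and mt-Nd4l to mt-Nd4 (0.224 and 0.383) and highest for mt-Nd6 to mt-Nd5 (2.53 and 1.59).

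In other mitochondrially encoded genes the NP and HP libraries spread widely. mt-Cytb, of complex III, was at 33830 ± 231 (LP), 31892 ± 7122 (NP) and 34322 ± 5971 FPKM (HP). mt-Nd1 was at 31509 ± 1545, 26889 ± 4348 and 30247 ± 4308 FPKM, and mt-Nd2 at 14385 ± 98.4, 12935 ± 2030.2 and 16552 ± 4332 FPKM. Both LP libraries lay above all NP libraries in mt-Nd1, and HP overlapped both other diets in all 3 genes.

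The 2 genomes were compared by the ratio of summed FPKM. It was 5.52 and 6.10 on LP, 6.64, 4.44 and 8.77 on NP, and 5.31, 5.88 and 8.69 on HP. NP held both the lowest and the highest ratio, and the diet means of 5.81 ± 0.41, 6.62 ± 2.17 and 6.63 ± 1.81 on LP, NP and HP did not separate. Within each diet the library labelled M had the highest ratio. The log2 ratio differed by 0.02 in HP against NP, 0.16 in HP against LP and -0.13 in LP against NP, beside a within-diet SD of 0.39 that ignores the labels. Within a label, LP minus NP was -0.27 (F2) and -0.52 (M), HP minus LP 0.09 and 0.51, and HP minus NP -0.18 and -0.01, each from 1 library against 1. Blocked on the label, the differences were -0.39 in LP against NP, 0.30 in HP against LP and -0.09 in HP against NP. By complex, the 7 mitochondrially encoded genes of complex I had a median of 0.28 in HP against NP where its nuclear-encoded genes had 0.17, and 0.17 in HP against LP where the nuclear-encoded genes had -0.09. Complex IV had 0.20 (mitochondrially encoded) and 0.18 (nuclear-encoded) in HP against NP, and -0.01 and 0.01 in HP against LP. Complex V went the other way from complex I in HP against NP, at 0.12 and 0.19, and had 0.06 and -0.07 in HP against LP. Mitochondrially encoded members took 25.1 to 35.3% of all FPKM, or 34.4 to 47.3% with their near-identical copies added. FPKM is scaled to the whole library, so a higher mitochondrial sum lowers what is left to other genes.

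**Figure D4:**
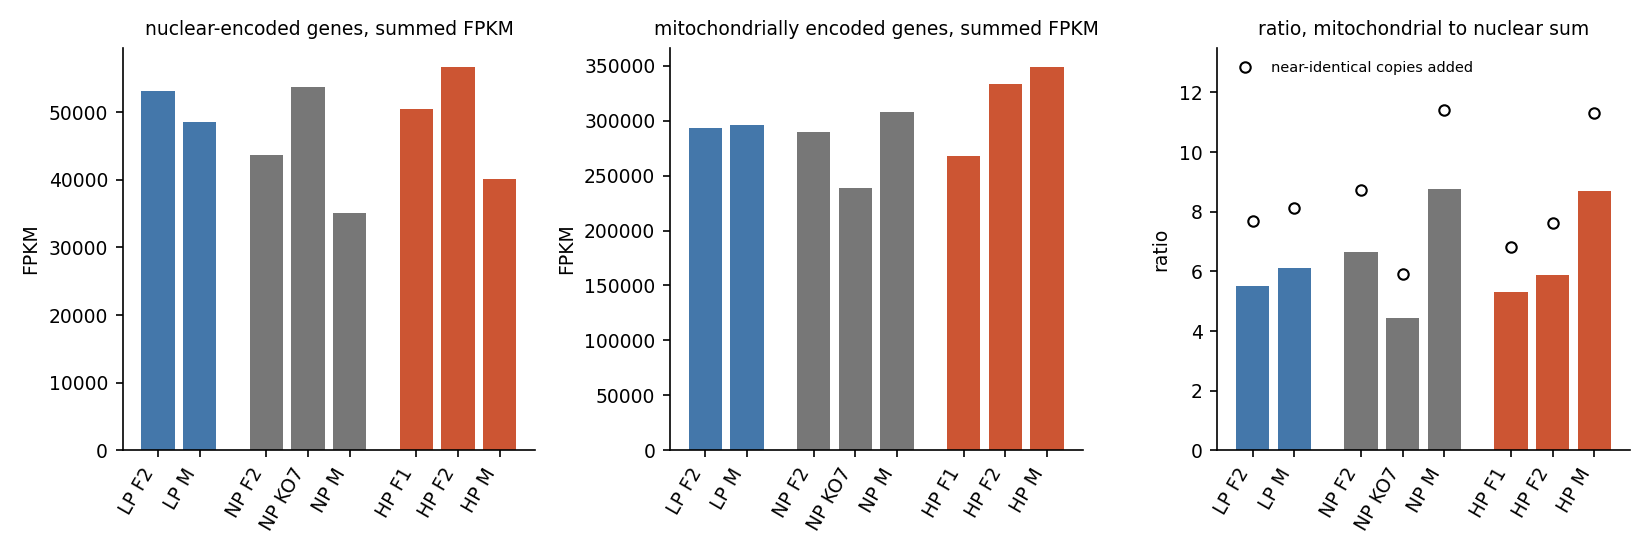
Summed FPKM of the nuclear-encoded and of the 13 mitochondrially encoded members in each library, and the ratio of the sums, bars coloured by diet (LP blue, NP grey, HP red), with open circles for the ratio after near-identical copies were added. The ratio runs from 4.44 in NP KO7 to 8.77 in NP M, and the 3 diets overlap.

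Near-identical copies elsewhere in the genome affect how far these levels can be read. For 23 members at least 1 other gene of the table matched the transcript at 98% identity or more over at least 150 bases, and for 10 the copies took more than 5% of the joint FPKM. For Ndufb4, a complex I subunit, the processed pseudogene Ndufb4c took 84.4%. For mt-Nd3 the pseudogene Gm28438 on chromosome 1, a nuclear copy of mitochondrial DNA, took 82.1%, and the first 90 bases of both are shown with the base that differs in capitals.
mt-Nd3: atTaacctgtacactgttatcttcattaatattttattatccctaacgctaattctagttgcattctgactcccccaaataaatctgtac
Gm28438: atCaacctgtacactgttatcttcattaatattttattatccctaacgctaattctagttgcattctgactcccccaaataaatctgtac
Over the 345 aligned bases 1 position differs, so most reads of one suit the other. Copies took 52.2% for mt-Atp6, 51.4% for mt-Co2, 46.4% for mt-Nd4l, 45.8% for mt-Co3 and 11.4% for mt-Co1, and the copies of mitochondrial genes together held 85260 to 126922 FPKM per library. The FPKM of copies was also added to that of their members, without weighting by length. The ratio of the genomes was then 5.90 to 11.4 over the libraries. The ratio of mt-Nd4l to mt-Nd4 was then 0.457 and 0.678 on LP against 0.793 to 0.913 elsewhere. No copy was found for mt-Nd1, mt-Nd2, mt-Nd5, mt-Nd6, mt-Cytb or mt-Atp8.

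Promoters are shown to describe the nuclear-encoded members, and any link of their motifs to the diet differences was not tested. The windows run from 250 bases before to 50 after the start of each gene (RefSeq, GRCm38.p6), and 67 of 86 nuclear-encoded symbols matched. The motif of NRF1, a factor known for control of respiratory genes, was searched as GCGCANGCG on both strands and stood in 29.9% of member windows, against 6.5% of all promoters and 13.8% of those of genes tested. The motif of ETS factors (CCGGAAGT) stood in 7.5% against 4.0% and 8.5%, and that of YY1 (AANATGGCG) in 11.9% against 2.5% and 5.4%. That of ERR receptors (TCAAGGTCA) stood in 3.0% (2 windows) against 0.4% and 0.3%. NRF1 matches stood in 8 of 32 windows of complex I, 2 of 3 of complex II and 2 of 5 of complex III. In complex V they stood in 6 of 13 (46.2%). In complex IV they stood in 1 of 13 (7.7%), that of Cox6a1, which is under the 13.8% of genes tested. A match describes letters in a window and is not a binding site. Shown are Cox6a1 (chr5:115348909-115349208, minus strand, 3 NRF1 matches, of which a pair overlap), Atp5b (chr10:128083057-128083356, plus strand, 1 YY1 match) and the muscle-type Cox8b (chr7:140900397-140900696, minus strand, no match to these motifs), with matches in capitals.
Cox6a1: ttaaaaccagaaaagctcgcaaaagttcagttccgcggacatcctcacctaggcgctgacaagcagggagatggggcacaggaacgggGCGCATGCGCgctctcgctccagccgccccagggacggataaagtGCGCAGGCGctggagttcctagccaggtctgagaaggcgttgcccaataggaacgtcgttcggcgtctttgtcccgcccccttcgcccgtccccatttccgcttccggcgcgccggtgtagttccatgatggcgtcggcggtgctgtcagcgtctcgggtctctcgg
Atp5b: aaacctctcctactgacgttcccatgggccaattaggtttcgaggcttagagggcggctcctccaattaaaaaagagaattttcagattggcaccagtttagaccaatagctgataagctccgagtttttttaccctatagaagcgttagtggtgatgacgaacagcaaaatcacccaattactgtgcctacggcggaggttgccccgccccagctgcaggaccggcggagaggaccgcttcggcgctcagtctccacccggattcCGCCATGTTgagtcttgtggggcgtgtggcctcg
Cox8b: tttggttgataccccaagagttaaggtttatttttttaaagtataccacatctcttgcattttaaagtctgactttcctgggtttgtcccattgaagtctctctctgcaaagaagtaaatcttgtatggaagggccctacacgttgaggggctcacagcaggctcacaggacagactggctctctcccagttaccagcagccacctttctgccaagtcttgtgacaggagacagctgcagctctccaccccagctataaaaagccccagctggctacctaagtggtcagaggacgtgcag

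Other genes of the pathway were taken from lists of assembly factors, mitochondrial DNA expression, oxidative regulators and mitochondrial mass. None was called in any comparison by limma at an adjusted p of 0.05. Of 46 assembly factors, 35 were above 0 and 11 below in LP against NP (76.1%, beside 47.9% of all genes), with 7 higher and 1 lower at an unadjusted p under 0.05 (background 4.57% and 5.82%). In HP against LP 34 were below 0 and 12 above (26.1% above, beside 44.9% of all genes), with 9 lower and 0 higher (background 7.32% and 5.06%). In HP against NP they split 22 above and 24 below (47.8% above, beside 40.9% of all genes), unlike the subunits. Ndufaf2, a complex I assembly factor, was at 30.6 and 30.2 FPKM on LP, 21.1, 18.3 and 19.0 on NP, and 24.8, 23.2 and 19.98 on HP, where LP lay above all others (log2 fold change 0.62 ± 0.15 in LP against NP, limma adjusted p = 0.400).

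Of the 28 genes of mitochondrial DNA expression, 75% were above 0 in LP against NP and 17.9% in HP against LP, beside 47.9% and 44.9% of all genes. In HP against LP 6 were lower and 0 higher at an unadjusted p under 0.05, with the same background of 7.32% and 5.06%. Trmt10c, which processes mitochondrial transfer RNA, was at 6.67 and 7.80 FPKM on LP, 4.54, 4.70 and 5.21 on NP, and 5.07, 4.16 and 4.76 on HP, so that LP again lay above the rest (-0.54 ± 0.16 in HP against LP, limma adjusted p = 0.287). Of 20 mitochondrial mass genes 10 were above and 10 below 0 in LP against NP, and in HP against NP 7 were above and 13 below (50% and 35% above, beside 47.9% and 40.9% of all genes). Mfn2, which fuses mitochondria, was at 10.3 and 13.9 FPKM on LP, 18.1, 19.8 and 16.6 on NP, and 27.1, 19.5 and 18.6 on HP, lowest on LP (0.79 ± 0.20 in HP against LP, limma adjusted p = 0.243).

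Of 18 oxidative regulators, 3 were above and 15 below 0 in LP against NP (16.7% above, beside 47.9% of all genes), the opposite direction to the subunits. Esrrb, a nuclear receptor of the ERR family, was at 1.28 and 1.39 FPKM on LP, 3.97, 7.55 and 2.55 on NP, and 7.80, 7.26 and 3.92 on HP. Both LP libraries were lowest (1.604 ± 0.37 in HP against LP, limma adjusted p = 0.219). Ppara, the fatty acid receptor, was at 9.02 and 9.27 FPKM on LP, 14.6, 11.8 and 13.04 on NP, and 11.6, 10.51 and 9.94 on HP.

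Markers of the cell types in the sort differed between diets as well, with no marker called. All genes tested give the background, with 40.9% above 0 in HP against NP, 44.9% in HP against LP and 47.9% in LP against NP. The 10 thick ascending limb markers summed to 684 to 745 FPKM on LP, 967 to 1999 on NP and 1117 to 2338 on HP. Of these, 9 were above 0 in HP against LP, 8 at an unadjusted p under 0.05 (background 5.06% higher). In LP against NP 9 were below 0, 7 at an unadjusted p under 0.05 (background 5.82% lower). The remaining 1 was higher there by 0.78 on the log2 scale, also at an unadjusted p under 0.05 (background 4.57% higher). In HP against NP, 9 of the 10 markers were above 0, with a median of 0.52 on the log2 scale. The 12 proximal tubule markers summed to 3996 to 5094 FPKM on LP, 4963 to 7646 on NP and 3921 to 6424 on HP. Of these, 11 were below 0 in LP against NP (median -0.46) and 10 in HP against NP (median -0.40). Proximal tubule markers were thus mostly lower where most respiratory subunits were higher, on LP and on HP against NP.

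Markers of distal segments and of podocytes, the filter cells of the glomerulus, stood low on LP. The 9 principal cell markers summed to 201 to 205 FPKM on LP and 274 to 546 in the other libraries, with 8 of 9 below 0 in LP against NP (median -0.81). The medians in LP against NP were -0.60 for distal convoluted tubule, -0.74 for intercalated cell (8 of 8 below 0) and -0.53 for podocyte markers (6 of 6 below 0). In HP against LP they were 0.63, 0.73 and 0.46, and in HP against NP 0.10, 0.08 and -0.16. These lists were thus lower on LP than on either other diet by their medians. Podocyte sums overlapped between LP and HP, at 37.7 and 45.3 FPKM on LP and 44.5 in HP M.

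Outside the epithelium, sums were 78.1 to 188 FPKM for endothelial, 94.3 to 255 for macrophage and 91.7 to 427 for red cell markers. In HP against NP 10 of 10 endothelial and 11 of 11 macrophage genes tested were above 0, and in LP against NP 3 of 10 and 11 of 11. At an unadjusted p under 0.05, 5 endothelial, 5 macrophage and 4 of 5 red cell markers were higher in HP against NP. None was lower, beside 2.96% higher and 5.92% lower of all genes. In HP against LP 6, 0 and 4 of them were higher (background 5.06%). The medians of fibroblast and pericyte markers were 0.38 in HP against NP, 0.33 in HP against LP and -0.0011 in LP against NP, and those of red cell markers 1.07, 0.98 and 0.12. The part of these cell types in the differences of the respiratory genes was not tested.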

How the data were processed

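Kidney epithelium sorted from 8 pools of Pkd1KO mice was sequenced as paired reads of 150 bases after oligo(dT) selection by the labels. After trimming (Trim Galore 0.6.7) the authors deposited FPKM per gene from RSEM 1.3.3 against GENCODE M26 (GRCm39). Depth was estimated from steps between low FPKM values. Symbols, gene types and transcripts came from GENCODE M21, and complexes were assigned from the symbol. Near-identical copies came from blastn 2.17.0 (98% identity over 150 bases).

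FPKM is not a count, so limma 3.58.1 (R 4.3.3) with a variance trend was run on log2(FPKM + 1) over 13566 genes, all 8 libraries in 1 fit with a mean per diet, with Benjamini-Hochberg adjustment and a threshold of 0.05. All libraries entered with no covariate. Fold changes are on the log2(FPKM + 1) scale, which understates low genes. The fit was tested on simulated data. Lists were described by counts and medians with no test.

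The members, lists and tests were chosen with earlier results of these data known. Named genes are the 4 members with the smallest p per comparison and direction, the 2 most abundant nuclear-encoded genes per complex, the mitochondrially encoded genes, core subunits, isoforms and members failing the filter, together with up to 4 genes per pathway list. Ratios between mitochondrial genes, Atpif1 and Ucp1 were added after values were seen. Alternatives were other pseudocounts, filters and scalings, no trend, array weights, the compared diets alone, the sex letter as a covariate without NP KO7, each library left out, and, chosen after seeing the data, copies added to members. Deviations from diet means correlated between libraries of the same label F2 or M at 0.14 to 0.35 in 6 pairs. Pairs of different labels ran from -0.38 to 0.25, and the deviations of the 2 LP libraries mirror each other. The correlations thus do not settle whether a label pairs libraries, and the labels were also fitted as a block.

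The 12 symbol matches that are not protein-coding were left out of the members, and the values of a member named by the rule are not reported here.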

Additional observations from a re-analysis of the deposited data

Results flagged for a closer look

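The nuclear-encoded subunits went opposite ways between HP and LP in the 2 labels both diets share. Their median log2 difference was 0.0822 between the libraries labelled F2 (52 of 84 genes above 0) and -0.3041 between those labelled M (77 of 84 below 0). Each label has 1 library per diet and LP M held transcripts of both sexes, so the difference was not tested. The mitochondrially encoded genes were above 0 in both labels, at 0.13 and 0.22.

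Of the genes whose symbols follow the rule but which are not annotated as protein-coding, 2 were abundant. Ndufb4c, a processed pseudogene matching Ndufb4 over 390 bases, had a mean of 769 FPKM over the 8 libraries. Ndufb1-ps, annotated as a bidirectional-promoter long non-coding RNA in GENCODE M21, had a mean of 125 FPKM. The lowest library was NP F2 for Ndufb4c and NP M for Ndufb1-ps.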

How the results depend on the processing

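The count of members called was 0 with limma as reported and became 1 under 2 alternatives: array weights in HP against NP (1, Cox6a2) and in HP against the mean (1), and the sex letter as a covariate without NP KO7 in HP against NP (1, Cox6a2), HP against LP (1, mt-Nd5) and HP against the mean (1). With each library left out it was 0 in every comparison. Both alternatives also called more genes over the whole table than the main fit did. In HP against LP the sex letter fit called 57 genes higher and 132 lower of 13485, beside 0 and 2 in the main fit. In HP against the mean it called 48 higher and 69 lower, and array weights 13 and 17, beside 0 and 1. The HP against NP counts are given with Cox6a2. In HP against NP, Ndufv3 reversed with the labels as a replicate block (0.0689) and with the sex letter (0.0004), and ranged from -0.2535 to 0.0262 with a library left out, the highest value without NP KO7. Ndufv1 reversed with the block (0.0218) and with the sex letter (0.0054), and ranged from -0.1554 to 0.0259, the highest again without NP KO7. Ndufa8 reversed with quantile normalization (0.007) and ranged from -0.202 to 0.0432, above 0 without NP KO7 and without HP M. Cox6b2 in LP against NP ranged from -0.5316 to 0.259, above 0 without LP F2 and without NP F2. The cause was not tested. The medians of the nuclear-encoded, mitochondrially encoded and complex sets and the ratio of the genomes moved by less than 1 within-diet SD in the alternatives run, although some signs changed. With each library left out the nuclear median ranged from 0.0077 to 0.3016 in HP against NP, -0.1861 to 0.05 in HP against LP and 0.1026 to 0.3944 in LP against NP. The block moved no member past the threshold. With 5 residual degrees of freedom and 2 libraries on LP the spread there is poorly known, and low members such as Cox4i2 rest on 3 to 20 fragments.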
